A study of Mus musculus with 24 samples.

Results

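Axon guidance genes were taken as the semaphorins, plexins, neuropilins, ephrins, Eph receptors, slits, robos, netrins and netrin receptors whose gene name fitted the family pattern and whose mean level was at least 0.5 FPKM over the 12 input RNA libraries of mouse spinal cord. FPKM is the number of fragments scaled to the length of the transcript and to the mapped fragments of the library, so levels can be compared between genes. Of 69 gene names that fitted the pattern, 63 reached that level, among 15564 genes that did so in all and 32884 genes in the table. The 6 left out for low level were Efna4, Epha1, Epha2, Epha3, Ntn5 and Robo3. Membership used the mean level over all libraries and no difference between groups.

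The cords came from 4 groups of mice with 3 replicates each, and every replicate gave an input library and a library of RNA pulled down with an antibody to N6-methyladenosine (m6A), 24 samples in all. In spared nerve injury, the common peroneal and tibial branches of the sciatic nerve were tied and a piece beyond the tie was removed, which leaves sensory and motor axons cut in the leg while the cord itself is not touched. Injured cords were taken on days 3, 7 and 14. In sham surgery the sciatic nerve and its branches were only exposed, and all sham cords are labelled day 3, so on days 7 and 14 injury and time after surgery cannot be told apart. The sources used here do not give strain, age or sex, or say whether the replicates of a group were different mice, so p-values measure only the spread between these libraries, which may be technical.

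Axon guidance proteins steer growing axons and migrating cells by attraction and repulsion. Semaphorins signal mainly through plexins, with neuropilins as co-receptors for the secreted class. Ephrins are membrane-bound ligands of the Eph receptor tyrosine kinases and signal in both directions. Slits repel axons through Robo receptors, and netrins attract through Dcc or repel through Unc5 receptors. In the adult cord these families are known for roles at synapses, in vessels, in glia and as barriers to regrowth of cut axons.

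The families differed widely in level, as the plot of levels by family shows. Mean levels of the 63 genes ran from 0.647 FPKM for Ntn3, a secreted netrin, to 70.6 FPKM for Efnb3, a transmembrane ephrin, with a median of 3.07 FPKM against 4.51 FPKM for all 15564 genes. Among 20 semaphorins the highest was Sema7a, which is anchored to the membrane by a lipid, at 32.9 FPKM. It was followed by Sema4d, a transmembrane ligand of plexin B1, at 19.4 FPKM and by Sema6d at 13.5 FPKM. Among 9 plexins the B class led, with Plxnb3 at 15.5 FPKM and Plxnb1 at 12.9 FPKM, and Plxnd1 was lowest at 1.45 FPKM. Nrp2 (4.39 FPKM) was higher than Nrp1 (2.05 FPKM). Ephb6, a receptor whose kinase domain is inactive, led the 11 Eph receptors at 12.3 FPKM, ahead of Ephb1 at 11.5 FPKM. Slit1 was at 7.53 FPKM and Slit2 and Slit3 at 1.78 and 1.80 FPKM. Robo2 and Robo1 were near each other at 3.64 and 3.57 FPKM, above Robo4, the endothelial member, at 1.40 FPKM. Ntn1 was the highest netrin at 2.99 FPKM, and of the netrin receptors Unc5b (13.6 FPKM) and Unc5a (7.50 FPKM) stood above Unc5d (2.46 FPKM), Unc5c (1.46 FPKM) and Dcc (1.36 FPKM).

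**Figure D1:**
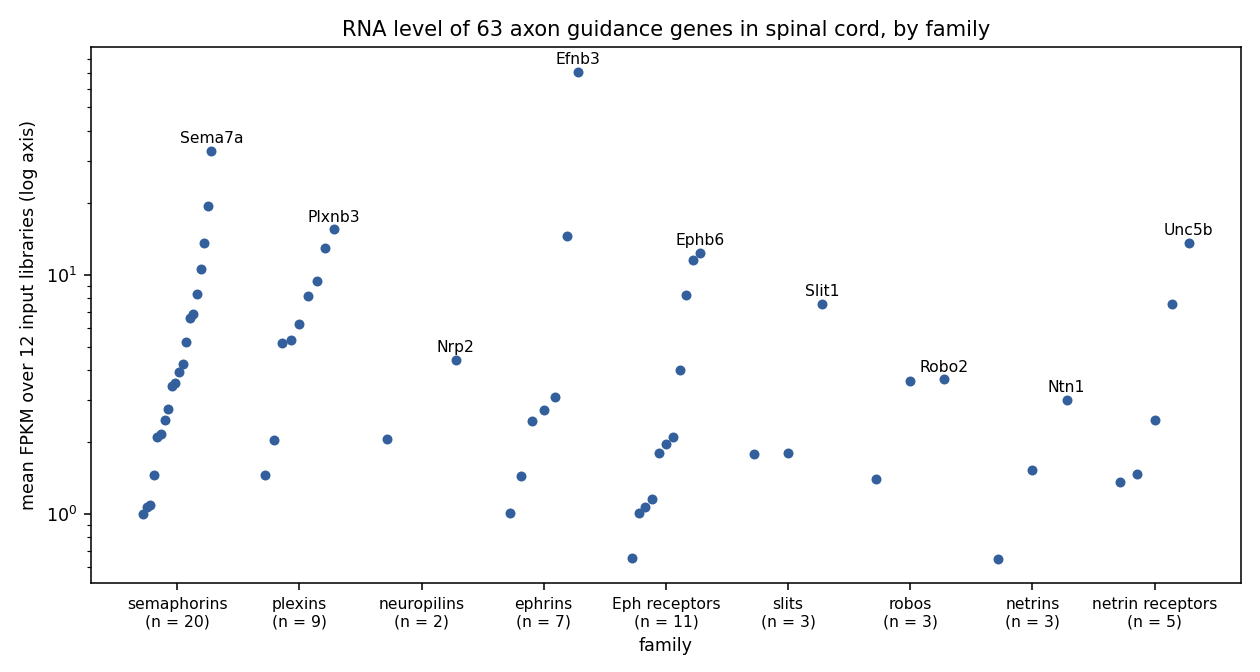
Mean FPKM over the 12 input libraries (vertical log axis) for each of the 63 axon guidance genes, 1 point per gene, grouped by family with the highest gene of each family named. Efnb3 at 70.6 FPKM and Sema7a at 32.9 FPKM stand above the rest, and every slit, robo, neuropilin and netrin is below 8.

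Sham library 3 and day 7 library 3 stood apart from the other 10 input libraries. Across genes they correlated with the others at 0.925 to 0.942 (Pearson's r of log2 values) and with each other at 0.983, while the other 10 correlated among themselves at 0.979 to 0.988. Neuron, astrocyte and oligodendrocyte markers were present in every library, at summed levels of 771 to 1035, 422 to 593 and 2114 to 2619 FPKM. Counts of genes past the threshold are given below with all 12 libraries and without those that stood apart, and single values mostly in the second form, with the first beside them where the sign turned. The second form rests on sham libraries 1 and 2. These also differ from the injured libraries in Gm23935, a non-coding RNA, at 3812 and 3891 FPKM against at most 515 FPKM, and their part in the results was not tested.

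Many axon guidance genes differed between those libraries and the other 10, in a way that went with gene span. Both libraries were below all of the other 10 for 34 of the 63 genes and above all of them for 19, against 33.5% and 29.6% of all genes. Of the 30 genes that span less than 50 kb, 26 were below and none was above, with a median FPKM ratio to the other libraries of 0.612 (0.881 over all genes of that span). Of the 17 genes that span 200 kb or more, 14 were above and 1 was below, with a median ratio of 1.38 (1.25 over all such genes). Ntn3 had the lowest ratio at 0.369, and Epha6, which spans 952 kb, the highest at 2.32. Across the 63 genes span and ratio correlated with a Spearman's rho of 0.74, against 0.33 across all genes, as a description over genes that share the same libraries. A mean over 3 libraries is therefore lowered for a short gene such as Plxnb3 (ratio 0.461) and raised for a long one such as Unc5c (ratio 2.11), in sham and on day 7.

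**Figure D2:**
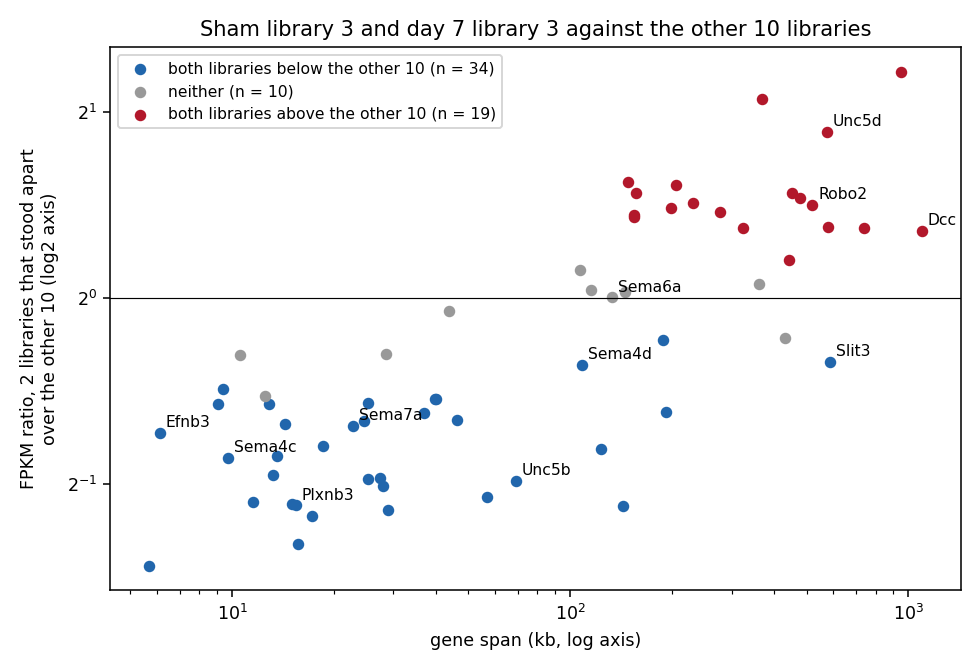
FPKM ratio of sham library 3 and day 7 library 3 (mean) to the mean of the other 10 libraries (vertical log2 axis) against gene span in kb (horizontal log axis) for the 63 axon guidance genes. Blue points, 34 genes, are below all other libraries in both, red points, 19 genes, are above, and grey points are neither: the blue points are mostly short genes and the red ones long genes.

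With all 12 libraries, no axon guidance gene passed limma's test (log2 of FPKM + 0.5, Benjamini-Hochberg adjusted p below 0.05 over 15564 genes) in any of the 6 comparisons. Few genes of any kind did: 0.0578% of all genes on day 3 against sham, 0.103% on day 7 against sham, 0.0514% on day 14 against sham, 0.0129% on day 7 against day 3, 0.0321% on day 14 against day 7 and 0.0129% on day 14 against day 3. At an unadjusted p below 0.05 limma called 1, 0, 2, 1, 4 and 0 of the 63 genes in the same order. Of all genes it called 6.24%, 2.53%, 4.92%, 4.05%, 4.46% and 1.75%. The genes of smallest p were Sema5a, a transmembrane semaphorin with thrombospondin repeats, on day 3 (log2 fold change −0.33 ± 0.14 SE, 95% interval −0.64 to −0.02, limma adjusted p = 0.695) and on day 7 against day 3 (0.38 ± 0.14 SE, adjusted p = 0.791). Sema3g, a secreted semaphorin of vessels, had it on day 7 against sham (−0.26 ± 0.14 SE, limma adjusted p = 1) and on day 14 against day 7 (0.41 ± 0.14 SE, adjusted p = 0.784). Sema3d had it on day 14 against sham (−0.38 ± 0.14 SE, limma adjusted p = 0.7), and Ephb4, the venous Eph receptor, on day 14 against day 3 (−0.24 ± 0.12 SE, adjusted p = 1).

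Their values show how wide the spread was. Sema3g was at 1.67, 1.49 and 1.25 FPKM in sham, 1.37, 1.77 and 1.34 on day 3, 1.38, 1.22 and 0.872 on day 7, and 1.68, 1.53 and 1.87 on day 14. Sema3d was at 1.09, 1.07 and 1.47 FPKM in sham, 0.922, 0.867 and 0.891 on day 3, 1.06, 0.854 and 1.34 on day 7, and 0.758, 0.995 and 0.686 on day 14. For Sema3d the third library was the highest in sham and on day 7, and all day 14 values were below all sham values. Ephb4 was at 1.18, 1.15 and 0.939 FPKM in sham, 1.48, 1.34 and 1.16 on day 3, 1.17, 1.30 and 0.994 on day 7, and 1.08, 1.22 and 0.849 on day 14, and its groups overlapped.

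Without the libraries that stood apart, 8 axon guidance genes fell on day 3 and none rose. They were the netrin receptor Unc5b, the plexins Plxnb3 and Plxnb1, the semaphorins Sema4c, Sema5a, Sema4d and Sema6d, and the Eph receptor Ephb1. Of all genes, 3.06% were lower and 4.01% higher on that day, and the 63 genes had a median log2 fold change of −0.09 against 0.02 for all genes. On day 14, 5 fell again (Plxnb3, Sema4c, Unc5b, Sema4d and Ephb1) and 1, Efnb3, rose, beside 2.29% lower and 2.42% higher of all genes. On day 7 none of the 63 passed against sham (0.379% lower and 0.732% higher of all genes). With limma, 7 (11.1%, beside 12.9% of all genes) had an unadjusted p below 0.05. The smallest p on day 7 was that of Plxnb3 (−0.18 ± 0.04 SE, limma adjusted p = 0.0633, and 0.07 ± 0.39 SE, adjusted p = 1, with all 12 libraries). The changes were small: the largest was a fold change of 0.774.

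**Figure D3:**
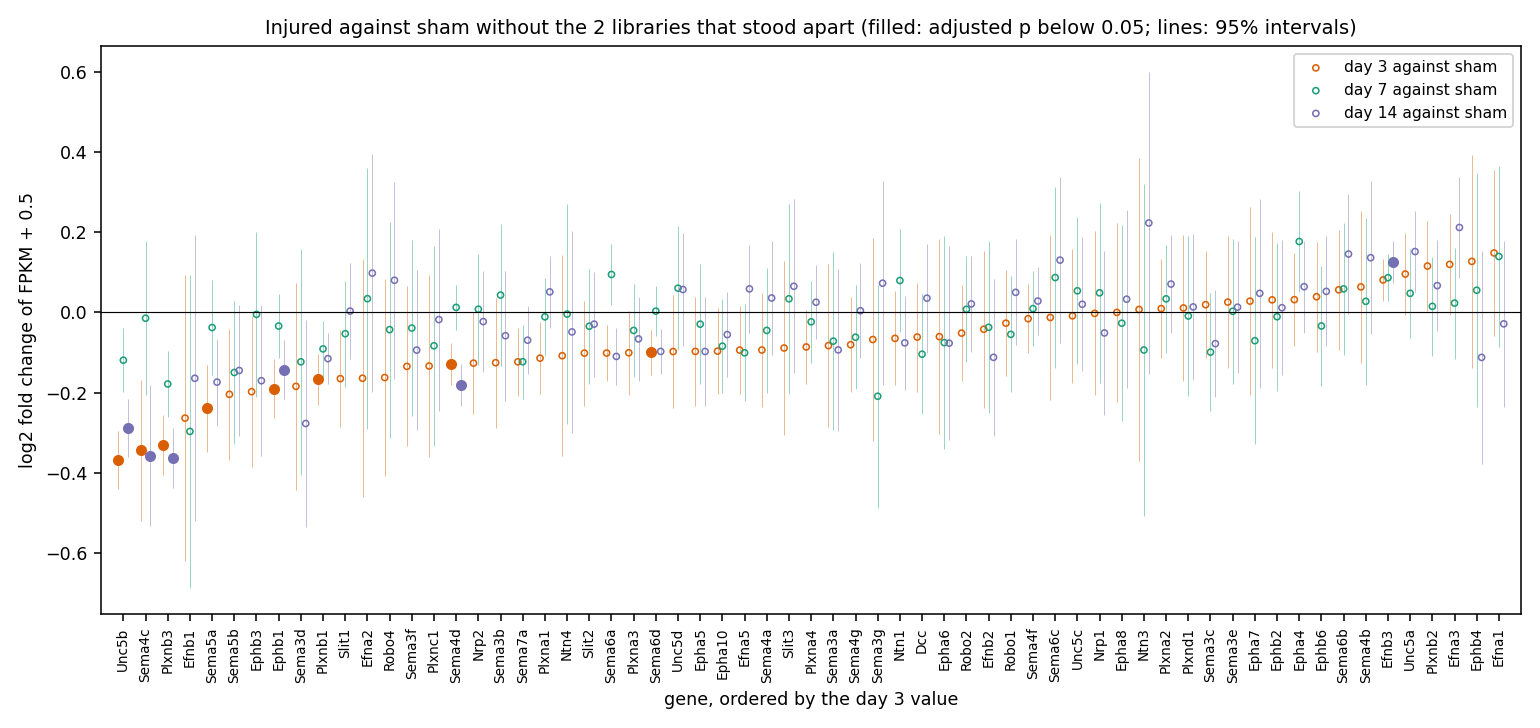
Log2 fold change of FPKM + 0.5 against sham (vertical axis) for each of the 63 axon guidance genes on day 3 (orange), day 7 (green) and day 14 (purple), without the 2 libraries that stood apart. Filled points passed an adjusted p of 0.05 and lines are 95% intervals: 8 genes were lower on day 3, none passed on day 7, and 5 were lower and Efnb3 higher on day 14.

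Unc5b, a netrin receptor of the repulsive class that is also known in vessels (ENSMUSG00000020099, chromosome 10, 60762593 to 60831581, minus strand), had the smallest p on day 3. It was at 17.3, 17.3 and 6.54 FPKM in sham, 13.2, 13.2 and 13.4 on day 3, 15.3, 16.4 and 8.44 on day 7, and 13.7, 14.1 and 14.3 on day 14, library 3 of sham and of day 7 being those that stood apart. Leaving those aside, sham was highest, day 7 came next, and days 3 and 14 were lowest, with no overlap between sham and any injured day. The log2 fold change was −0.37 ± 0.03 (SE, 95% interval −0.44 to −0.30, limma adjusted p = 0.000467) on day 3 and −0.29 ± 0.03 (SE, adjusted p = 0.00204) on day 14. On day 7 it was −0.12 ± 0.03 (SE, limma adjusted p = 0.186). In the fit of all 12 libraries the day 3 value turned to 0.08 ± 0.34 (SE, limma adjusted p = 0.916), the day 7 value to 0.04 ± 0.34 (SE, adjusted p = 1) and the day 14 value to 0.16 ± 0.34 (SE, adjusted p = 0.828). Between the libraries that stood apart, Unc5b was higher on day 7 than in sham, by 0.35 on the log2 scale with 1 library each and no test, against −0.12 in libraries 1 and 2.

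Plxnb3, a class B plexin known for high expression in myelinating glia (ENSMUSG00000031385, chromosome X, 73757090 to 73772514, plus strand), followed the same order. It was at 19.5, 20.7 and 6.24 FPKM in sham, 15.9, 15.6 and 16.1 on day 3, 17.3, 18.1 and 9.42 on day 7, and 15.3, 15.7 and 15.6 on day 14. Sham libraries 1 and 2 were above every injured library. The log2 fold change was −0.33 ± 0.03 (SE, limma adjusted p = 0.000854) on day 3 and −0.36 ± 0.03 (SE, adjusted p = 0.000604) on day 14. In the fit of all 12 they were 0.21 and 0.17 with an SE of 0.39 each (limma adjusted p = 0.806 and 0.834). The libraries that stood apart differed by 0.56 in the opposite direction to libraries 1 and 2 on day 7. Plxnb1, the receptor for Sema4d, was at 15.0, 14.6 and 9.03 FPKM in sham and 13.4, 12.9 and 13.1 on day 3 (−0.17 ± 0.03 SE, limma adjusted p = 0.0107, against 0.06 ± 0.21 SE with all 12 libraries, adjusted p = 0.891).

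Among the ligands, Sema4d, which is shed from cells and is known in oligodendrocytes (ENSMUSG00000021451, chromosome 13, 51685529 to 51793747, minus strand), was at 21.5, 21.4 and 15.7 FPKM in sham. It was at 19.5, 19.7 and 19.6 on day 3, 21.3, 22 and 15.8 on day 7, and 19.2, 18.7 and 18.7 on day 14. Sham and day 7 lay together above days 3 and 14 in libraries 1 and 2. The log2 fold change against sham was −0.13 ± 0.02 (SE, limma adjusted p = 0.013) on day 3, 0.01 ± 0.02 (SE, adjusted p = 0.886) on day 7 and −0.18 ± 0.02 (SE, adjusted p = 0.00376) on day 14. In the fit of all 12 libraries Sema4d was at 0.02 ± 0.14 (SE, limma adjusted p = 0.952) on day 3 and −0.03 ± 0.14 (SE, adjusted p = 0.915) on day 14.

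Sema4c, a transmembrane class 4 semaphorin and a ligand of plexin B2, was at 4.46, 5.44 and 2.29 FPKM in sham, 3.73, 3.76 and 3.85 on day 3, 4.76, 5.00 and 2.36 on day 7, and 4.01, 3.66 and 3.56 on day 14. Leaving library 3 of sham and of day 7 aside, sham held the widest spread of the 4 groups, and both sham libraries were above days 3 and 14. The log2 fold change was −0.34 ± 0.08 (SE, limma adjusted p = 0.034) on day 3 and −0.36 ± 0.08 (SE, adjusted p = 0.0378) on day 14, and with all 12 libraries −0.02 and −0.04 with an SE of 0.29 each (adjusted p = 0.971 and 0.955). Sema5a was at 4.27, 4.35 and 5.27 FPKM in sham, 3.45, 3.61 and 3.66 on day 3, 4.02, 4.36 and 6.30 on day 7, and 3.88, 3.74 and 3.67 on day 14. Day 3 was below every sham library, and the fall of Sema5a was −0.24 ± 0.05 (SE, limma adjusted p = 0.0211) without the libraries that stood apart. Sema6d was at 13.4, 13.4 and 17.6 FPKM in sham and 12.6, 12.5 and 12.3 on day 3 (−0.10 ± 0.02 SE, limma adjusted p = 0.0497, and −0.23 ± 0.11 SE, adjusted p = 0.695, with all 12). Sema5a and Sema6d kept their sign with all 12 libraries. Sham library 3 was the highest sham library for both, so including it could only deepen the fall and is no check of the sign. Neither call was firm. Sema6d no longer passed at a pseudocount of 0.1 or when any 1 day 3 library was left out. Sema5a no longer passed without day 3 library 1 or 2.

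Of the 7 ephrins and 11 Eph receptors, only Efnb3 and Ephb1 passed against sham, and only without the libraries that stood apart. Ephb1, a receptor for B-class ephrins that is known for synaptic roles in spinal pain pathways, was at 12.9, 12.4 and 8.56 FPKM in sham, 10.9, 10.8 and 11.4 on day 3, 12.4, 12.3 and 11.7 on day 7, and 11.6, 11.5 and 11.2 on day 14. The log2 fold change was −0.19 ± 0.03 (SE, limma adjusted p = 0.0111) on day 3 and −0.14 ± 0.03 (SE, adjusted p = 0.0449) on day 14. The fit of all 12 libraries gave −0.01 ± 0.13 (SE, limma adjusted p = 0.97) and 0.04 ± 0.13 (SE, adjusted p = 0.896). Efnb3 (ENSMUSG00000003934, chromosome 11, 69554092 to 69560205, minus strand) was at 70.1, 72.8 and 47.3 FPKM in sham, 76.5, 73.6 and 76.7 on day 3, 75.6, 76.2 and 44.0 on day 7, and 77.4, 78.3 and 78.1 on day 14. Day 14 was above all sham libraries, by 0.13 ± 0.02 (SE, limma adjusted p = 0.0213), and by 0.32 ± 0.21 (SE, adjusted p = 0.7) with all 12 libraries. Neither day 14 call was firm. Efnb3 no longer passed with median-of-ratios scaling, and Ephb1 no longer passed with each library scaled to a fixed sum. Both were also lost when any 1 day 14 library was left out.

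Other genes that led their families did not pass in any of the 6 comparisons, with or without the libraries that stood apart. Sema7a was at 37.8, 36.6 and 22.8 FPKM in sham, 34.7, 34.9 and 32.9 on day 3, 33.4, 34.9 and 20.8 on day 7, and 34.2, 36.2 and 36 on day 14. Ephb6 was at 13.5, 13.1 and 6.05 FPKM in sham, and at 14.2, 14.3 and 12.6 on day 3, 13, 13 and 6.50 on day 7, and 13.3, 13.4 and 14.8 on day 14. Slit1 was at 8.84, 8.41 and 3.52 FPKM in sham, 7.93, 7.72 and 7.27 on day 3, 8.29, 8.30 and 4.10 on day 7, and 8.38, 8.34 and 9.24 on day 14. For all of these the largest gap was between library 3 of sham or of day 7 and the rest. Nrp2 was steadier, at 4.77, 4.26 and 4.47 FPKM in sham, 3.99, 4.11 and 4.16 on day 3, 4.54, 4.53 and 4.54 on day 7, and 4.49, 4.62 and 4.19 on day 14. Robo2 was at 3.54, 3.31 and 4.96 FPKM in sham, 3.29, 3.15 and 3.41 on day 3, 3.35, 3.54 and 4.69 on day 7, and 3.63, 3.38 and 3.44 on day 14. Ntn1 was at 3.11, 3.36 and 1.94 FPKM in sham, 3.01, 3.21 and 2.99 on day 3, 3.35, 3.54 and 2.20 on day 7, and 2.98, 3.12 and 3.01 on day 14. Robo2, a long gene, was highest in the libraries that stood apart, and Ntn1 was lowest there.

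The injured days were also compared with each other. Without the libraries that stood apart, Unc5b (0.25 ± 0.03 SE, limma adjusted p = 0.00589), Sema6a (0.20 ± 0.03 SE, adjusted p = 0.0165) and Sema4d (0.14 ± 0.02 SE, adjusted p = 0.0176) were higher on day 7 than on day 3, and none was lower, beside 1.16% higher and 0.874% lower of all genes. Sema6a, a transmembrane semaphorin that binds class A plexins, was at 8.61, 8.55 and 8.66 FPKM in sham, 7.84, 8.05 and 8.0 on day 3, 9.37, 9.02 and 8.02 on day 7, and 7.89, 8.08 and 7.78 on day 14. From day 7 to day 14 Sema6a (−0.20 ± 0.03 SE, limma adjusted p = 0.0113), Sema4d (−0.19 ± 0.02 SE, adjusted p = 0.00319), Plxnb3 (−0.19 ± 0.03 SE, adjusted p = 0.023) and Unc5b (−0.17 ± 0.03 SE, adjusted p = 0.0298) fell and none rose, beside 1.61% lower and 1.08% higher of all genes. With all 12 libraries Unc5b and Plxnb3 took the other sign (0.12 ± 0.34 SE and 0.11 ± 0.39 SE from day 7 to day 14, limma adjusted p = 0.888 and 0.914). From day 3 to day 7 Unc5b and Sema4d also did (−0.04 ± 0.34 SE and −0.01 ± 0.14 SE, limma adjusted p = 0.966 and 0.988), while Sema6a kept its sign (0.13 ± 0.07 SE, adjusted p = 0.791, and −0.14 ± 0.07 SE, adjusted p = 0.784, from day 7 to day 14). Between day 14 and day 3, which hold none of the libraries that stood apart, no axon guidance gene passed (0.932% higher and 1.05% lower of all genes). With limma, 10 (15.9%, beside 15.3% of all genes) had an unadjusted p below 0.05. The smallest was that of Plxna1, a receptor for secreted semaphorins (0.17 ± 0.03 SE, limma adjusted p = 0.056). Plxna1 was at 9.76, 10.6 and 6.65 FPKM in sham, 9.30, 9.50 and 9.24 on day 3, 10.1, 10.1 and 6.04 on day 7, and 10.6, 10.2 and 10.8 on day 14.

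Like Unc5b, Plxnb3, Sema4d and Sema6a, oligodendrocyte markers were higher in day 7 libraries 1 and 2 than on days 3 and 14. The sum of 4 markers (Mbp, Mog, Mag and Cnp) was 2483, 2476 and 2139 FPKM in sham, 2201 to 2207 on day 3, 2614, 2619 and 2395 on day 7, and 2114 to 2128 on day 14. The sum of 3 precursor markers was 23.8 to 28.7 FPKM in sham, 22.3 to 23.2 on day 3, 25.1 to 28.4 on day 7 and 19.8 to 20.6 on day 14. Most of that sum was Olig2, which in day 7 libraries 1 and 2 was above every library of days 3 and 14. In the same libraries Pdgfra overlapped day 3 and Cspg4 overlapped day 14. In bulk tissue, fewer cells of a type and less RNA per cell cannot be told apart, and the part of these cells in the results was not tested. The sum of 5 endothelial markers, a cell type in which Unc5b is known, was also lower in the injured libraries than in sham libraries 1 and 2. It was 59.9, 60.1 and 36.4 FPKM in sham, 49.5 to 51.3 on day 3, 49.6, 51.9 and 39.0 on day 7, and 50.5 to 51.5 on day 14. Cldn5, Kdr and Ly6c1 were below sham libraries 1 and 2 in every injured library, while Pecam1 and Flt1 overlapped them. The sum of 4 motor neuron markers was 24.1, 22.9 and 20.6 FPKM in sham, 18.1 to 18.6 on day 3, 19.8, 19.6 and 14.8 on day 7, and 19.2 to 20.2 on day 14. Of these markers, Chat and Slc5a7 were below sham libraries 1 and 2 in every injured library, while Isl1 and Mnx1 overlapped them. Both sums were below those of sham libraries 1 and 2 in every injured library. So was the sum of 6 neuron markers, at 1035 and 1031 FPKM in sham libraries 1 and 2 and at most 1009 in injured libraries. Of the neuron markers, only Nefm was below sham libraries 1 and 2 in every injured library. The part of these cell types in the results was not tested either. Among other cell types the cord could hold, the sum of 5 microglial markers was 25.5 to 32.4 FPKM in sham and 35.7 to 44.4 in injured libraries. Cx3cr1, Tmem119 and Csf1r were above all sham libraries in every injured library, while P2ry12 and Aif1 overlapped sham. The sum of 3 blood markers was 115 to 190 FPKM in sham and 219 to 423 FPKM in injured libraries. Sums for dorsal root ganglion neurons, at 23.0 to 47.9 and 23.8 to 53.6 FPKM, and for skeletal muscle, at 1.73 to 7.56 and 1.23 to 9.66 FPKM, overlapped.

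**Figure D4:**
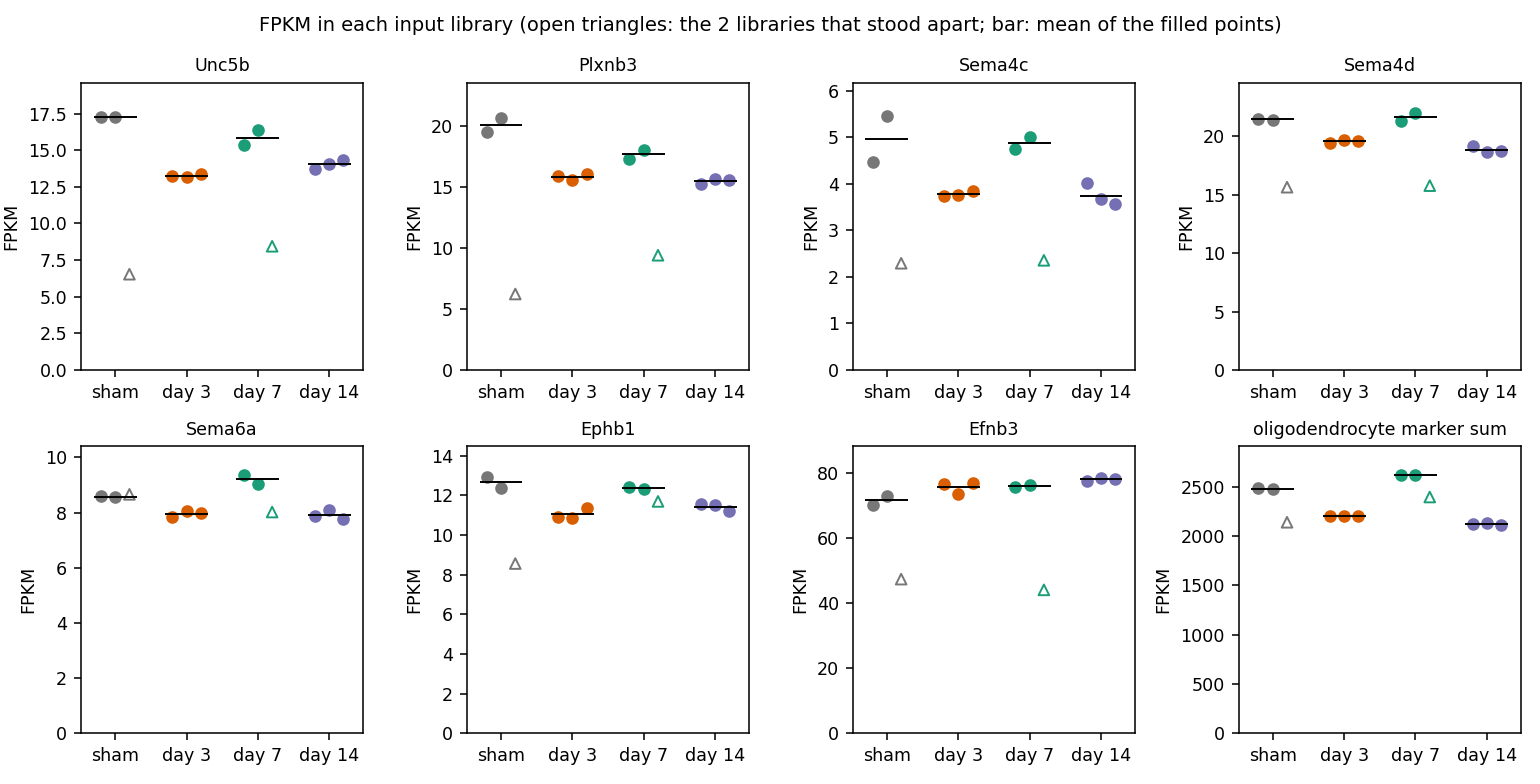
FPKM (vertical axis from 0) in each of the 12 input libraries by group for 7 axon guidance genes and for the sum of 4 oligodendrocyte markers. Open triangles are sham library 3 and day 7 library 3, filled points the other libraries, and bars the means of the filled points: Unc5b, Plxnb3, Sema4c, Sema4d, Sema6a and the markers are lower on days 3 and 14 than on day 7, and the triangles are below the filled points of their group in all panels but Sema6a in sham.

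The calls made without the libraries that stood apart depended partly on single libraries. Unc5b and Plxnb3 on days 3 and 14 against sham, Sema4d on day 14 against sham and against day 7, and Unc5b on day 7 against day 3 passed whichever 1 of the 5 remaining libraries was left out. In place of the 8 genes called on day 3, 3 were called without sham library 1, 4 without sham library 2, and 5, 6 and 6 without day 3 library 1, 2 or 3. In place of the 6 called on day 14, 5 were called without sham library 1, 4 without sham library 2 and 3 without day 14 library 1, 2 or 3. On day 7 against day 3, 1 gene was called in place of 3 whichever library was left out, and on day 14 against day 7, 2 in place of 4.

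Partners and effectors of these receptors were read from 6 lists of 88 genes, of which 82 were tested. With all 12 libraries none passed in any comparison. Without the libraries that stood apart, 2 rose and 6 fell on day 3, 1 rose and 1 fell on day 7, and 4 fell on day 14. Of all genes, 4.01% rose and 3.06% fell on day 3, 0.732% and 0.379% on day 7, and 2.42% and 2.29% on day 14. Rnd1, a small GTPase that binds plexins, rose on day 3 (0.27 ± 0.03 SE, limma adjusted p = 0.0016), as did Cdc42 (0.10 ± 0.02 SE, adjusted p = 0.00807), a small GTPase that organises actin. Cntn2, an adhesion molecule of axons and myelin, fell on day 3 (−0.15 ± 0.02 SE, limma adjusted p = 0.00191) and on day 7 (−0.11 ± 0.02 SE, adjusted p = 0.0359). Fyn, a kinase that acts downstream of netrin and semaphorin receptors and is known in myelination, fell on day 3 (−0.18 ± 0.04 SE, limma adjusted p = 0.0189), rose from day 3 to day 7 (0.27 ± 0.04 SE, adjusted p = 0.00706) and fell again to day 14 (−0.22 ± 0.04 SE, adjusted p = 0.0151). Mag, a myelin inhibitor that is also 1 of the oligodendrocyte markers above, did the same (−0.12, 0.16 and −0.18 with an SE of 0.02 each, limma adjusted p = 0.00564, 0.00246 and 0.00119). The others that fell on day 3 were Mical3, Srgap3 and Rtn4. Chn2, a Rac regulator downstream of Eph receptors, fell on day 14 (−0.26 ± 0.03 SE, limma adjusted p = 0.00316), with Dpysl2, Ptk2 and Mag. Cfl1, which severs actin filaments, rose on day 7 (0.10 ± 0.02 SE, limma adjusted p = 0.0231). Between injured days, 2 rose and none fell from day 3 to day 7, 2 rose and 3 fell from day 7 to day 14, and from day 3 to day 14, 4 rose (Arhgef11, Cntn2, L1cam and Lingo1) and 3 fell (Chn2, Dpysl2 and Rnd1). Of all genes, 1.16% rose and 0.874% fell from day 3 to day 7, 1.08% and 1.61% from day 7 to day 14, and 0.932% and 1.05% from day 3 to day 14. With all 12 libraries the sign turned for Cdc42 (−0.06 ± 0.14 SE, limma adjusted p = 0.85) and Cntn2 (0.08 ± 0.18 SE, adjusted p = 0.834) on day 3 and for Dpysl2 on day 14 (0.08 ± 0.15 SE, adjusted p = 0.802). It turned for Mag on day 3, day 7 against day 3 and day 14 against day 7 (0.26, −0.16 and 0.15 with an SE of 0.31 each, limma adjusted p = 0.719, 0.843 and 0.856), and on day 14 against sham (0.24, adjusted p = 0.728).

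The m6A peak lists, 1 per group, add a second readout. Nearly all axon guidance genes carried a peak: 61 of 63 in sham, 62 on day 3, 62 on day 7 and 61 on day 14, beside 74.4%, 85.5%, 76.6% and 85.1% of all genes tested. The genes held 152, 163, 151 and 167 peaks in the same order, and 60 had at least 1 in all 4 lists. Unc5a, at 7.50 FPKM, had none in any list. Efna3 had none in sham, and Efna5 none on day 14. Each list has no replicates, fold enrichments are those of the authors and describe a peak within its list, and whether the libraries of a group were pooled is not given in the sources used here. Lists of different length can differ in calls for the depth behind them, which is not given either. The median fold enrichment of peaks in all tested genes also differed between lists, at 5.29 in sham, 3.85 on day 3, 4.61 on day 7 and 3.95 on day 14.

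In sham, 95 of the 152 peaks were annotated to a 3′ UTR, 33 to a 5′ UTR and 24 to other exons. These regions are those of the annotation in the deposited list, which names the same gene for 113 of the 152 peaks (74.3%) and another gene for the rest. These are 62.5%, 21.7% and 15.8%, against 54.5%, 17.7% and 27.8% of all peaks in tested genes. The highest fold enrichments in sham were in the 3′ UTR of semaphorin genes. Sema7a had a peak at chr9:57961306-57962715 with a fold enrichment of 96.7, and its top peaks on days 3, 7 and 14 had 78.1, 62.2 and 53.8. Sema4c had 94.8 at chr1:36548639-36550309, then 169, 53.1 and 41.6, in a stretch for which the list's annotation names the neighbouring gene Ankrd39. Sema3g followed with 51.3 at chr14:31229337-31230352, Sema6c with 33.6 at chr3:95173035-95174024, and Efnb2, a transmembrane ephrin of vessels, with 25.1 at chr8:8620188-8620816. For the Efnb2 peak the annotation names another gene, E230020D15Rik. Among families, semaphorins had 32 of 40 sham peaks in a 3′ UTR and Eph receptors 21 of 34. Netrins, with 12 peaks over 3 genes, had the most peaks per gene, but 6 of these were in Ntn3, the gene of lowest level. Ntn1 and Ntn4 had 3 each, near the means of 3.11 for plexins and 3.09 for Eph receptors.

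Peak positions were compared between sham and each injured list. With at least 50% reciprocal overlap on the same strand, 76 of the 152 sham peaks had no match on day 3, 61 none on day 7 and 72 none on day 14, beside 47.8%, 43.0% and 47.2% of sham peaks in all tested genes. In the other direction 87 of 163 peaks on day 3, 60 of 151 on day 7 and 87 of 167 on day 14 had no sham match, beside 57.8%, 44.0% and 56.0%. Many of these were redrawn ends: 15, 25 and 16 sham peaks shared no base with a peak of days 3, 7 and 14 (10.5%, 16.0% and 10.7% of all), and 42, 27 and 48 peaks of those days shared none with sham (35.1%, 22.3% and 33.8% of all). The unmatched peaks of highest fold enrichment were mostly the same site with other ends, since 17 of the 18 named next shared a base with the other list, the exception being the sham peak of Plxna4. The day 3 peaks without a match that had the highest fold enrichment were in Ntn1 (29.3), Ntn3 (27.0, annotated to Tbc1d24) and Efnb2 (23.4). Those of day 7 were in Sema4c (53.1), Ntn1 (28.2) and Ephb2 (21.4), and those of day 14 in Plxna3 (34.3), Ephb2 (21.1) and Epha5 (17.6). The sham peaks without a match were in Efnb2 on all 3 days (25.1, and 24.6 for another on day 3), in Ntn1 on days 3 and 7 (24), in Ephb2 on day 7 (20.1) and in Plxna4 and Plxna3 on day 14 (18.2 each). New peaks with a match in all 3 injured lists were found in Epha10, Nrp2 and Plxna1, all annotated to a 3′ UTR and all with fold enrichments of at most 3.57. For the Nrp2 peak the annotation names another gene, Gm37121. The Epha10 peak (chr4:124886300-124886419) lies nearer the start than the end of the gene's span (124880899 to 124917800, plus strand). These are 3 of 163 day 3 peaks (1.84%), beside 4.36% of day 3 peaks in all tested genes.

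Peaks over the start of the transcript were counted next. Of the 63 genes, 53 had an annotated start in the RefSeq table (GRCm38.p6), and a peak block lay over the first 50 transcribed bases in 12 of them in sham, 16 on day 3, 13 on day 7 and 21 on day 14. Among all genes with such a start the shares were 18.8%, 32.4%, 18.0% and 30.8%, so days 3 and 14 were higher there too. Unc5b was 1 of 2 genes with the start under a peak in all 3 injured lists and not in sham. Its start was under a peak on day 3 (fold enrichment 12.9), on day 7 (15.1, chr10:60831431-60831581) and on day 14 (10.4, chr10:60831102-60831581), and under none in sham, where Unc5b RNA was highest in libraries 1 and 2. In sham its only peak lay in the 3′ UTR with a fold enrichment of 1.57. Ephb2, a receptor for B-class ephrins, was the other, with 6.25, 14.1 and 21.1, and its day 7 peak held 61 bases. Of all genes with an annotated start, 2.81% had this pattern. Epha10, Ephb1 and Ephb6 had a start peak on days 3 and 14 and none in sham or on day 7. So had Efnb3, at the first base of the gene in the gene table. The share of all genes with this pattern was not counted, and start peaks were more frequent on those days over all genes. Nrp2 (16.1, 5.86, 9.39 and 5.63 in sham and on days 3, 7 and 14), Slit2 (6.62, 5.47, 7.05 and 18.5) and Sema4c had one in every list (3 of 53, 5.66%, beside 10.6% of all genes), though neither of the annotated starts of Sema4c was covered in all 4. Efnb2 and Sema4d had one in sham only (3.77%, beside 2.03% of all genes).

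**Figure D5:**
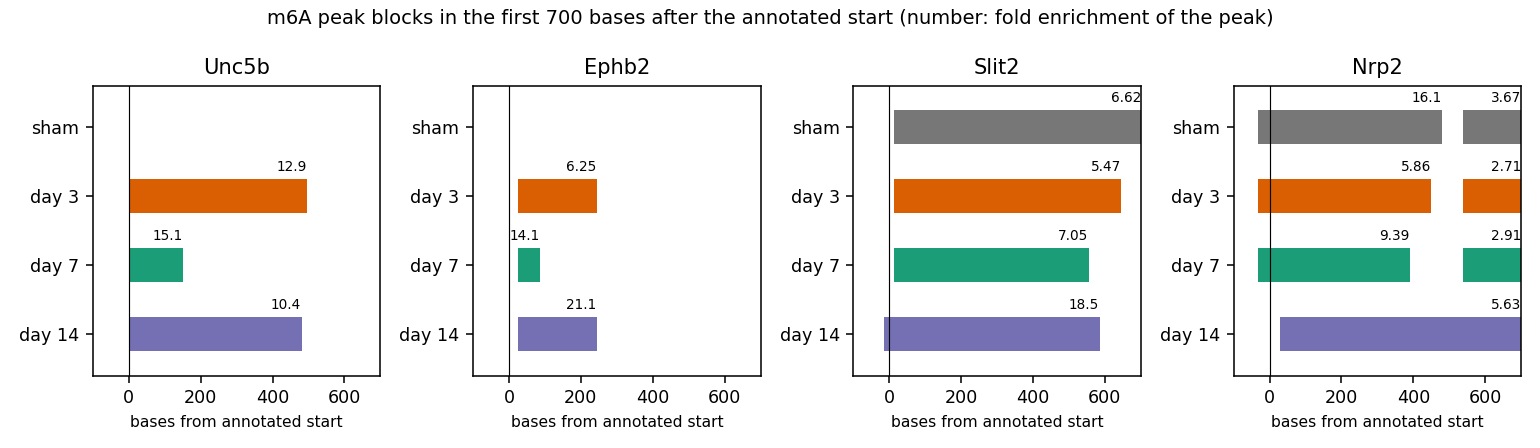
Extent of m6A peak blocks in the first 700 bases after the annotated start (horizontal axis, bases; the line marks the start) for Unc5b, Ephb2, Slit2 and Nrp2, 1 bar per peak block and list, with the fold enrichment printed above it. Unc5b and Ephb2 have bars in the 3 injured lists and none in sham, and Slit2 and Nrp2 have bars in all 4.

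The sequences at these starts are shown to compare genes whose start peaks differ between lists, from RefSeq on GRCm38.p6, 30 bases each in the direction of the transcript. The core GGAC or AGAC, to which m6A is commonly added at the A, is in capitals, and only the transcript strand was searched. The stretches do not all begin at the start: they begin at base 19 in Ephb3, 7 in Plxnc1, 21 in Sema3e and Ephb2, 6 in Efnb2 and 1 in the rest. Slit2 (chr5:47983155-47983184, plus strand) lay under a peak in all 4 lists and starts with the motif, though the peak begins at base 14 in sham and on days 3 and 7. Ephb3 (chr16:21204813-21204842, plus) and Plxnc1 (chr10:94944810-94944839, minus) were covered in sham and on days 3 and 14. So were Plxna2 and Plxna3, which hold neither motif in their first 50 bases and are not printed. The printed genes therefore do not show how motif and coverage go together. Sema3e (chr5:14025296-14025325, plus) was covered on days 3 and 7 with fold enrichments of 23.4 and 10.3, and Efnb2 (chr8:8661208-8661237, minus) in sham with 11.2. Unc5b (chr10:60831552-60831581, minus), Ephb2 (chr4:136835963-136835992, minus) and Nrp2 (chr1:62703317-62703346, plus) hold neither motif in these bases or in the first 50.
Slit2: GGACttgggcttatttatttacggagcgcc
Ephb3: cggctcctaccccGGACggcgagcgcacaa
Plxnc1: ctccggcgaaggcGGACgaggaggaagcgt
Sema3e: aggcacgtgggctggAGACacttcctagaa
Efnb2: ctctccgcggcggGGACagaggcaccggtc
Unc5b: attgtggccggcggcagggcgggcgagggc
Ephb2: gcccgggctggatggctcattctgctggct
Nrp2: ggatcgctctgccgcggctctgacatccac

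Of the 69 start windows of 50 bases that belong to axon guidance genes, 29 held GGAC or AGAC (42.0%), and so did 14 of the 30 under a peak in at least 1 list (46.7%). Of 32851 such windows of all genes, leaving out 1 chromosome that was not used here, 33.3% held a motif on the transcript strand. A match is only a description of the letters and not a mapped site.

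The peaks of the genes whose RNA fell were compared last. Over all tested genes the median fold enrichment was 5.29 in sham and 3.85, 4.61 and 3.95 on days 3, 7 and 14. Lower values in the injured lists are therefore not particular to these genes. Unc5b had its top peak at the start in the injured lists and only its 3′ UTR peak in sham, as given above. Plxnb3 had 2 peaks in each list: 1 in a coding exon, with fold enrichments of 12.4, 3.80, 3.87 and 4.61 in sham and on days 3, 7 and 14, and 1 in the 3′ UTR, with 3.76, 4.03, 4.12 and 5.13. The exon peak was 120 bases wide in sham and 330 to 450 bases in the injured lists. Sema4d had 2 peaks in its 3′ UTR in every list (6.76 at the higher one in sham, then 2.98, 4.87 and 3.63). Sema5a had its top peak in the 3′ UTR in every list (9.46, 11.1, 16.8 and 10.7), drawn as a longer peak in the injured lists, without a 50% match to sham, and a further one at its end (4.84, 5.55, 5.71 and 5.41). The top peaks of Plxnb1 (8.97, 4.67, 4.79 and 6.96) and Sema6d (11.4, 9.86, 11.8 and 10.7) lay in the 3′ UTR at the same place in all 4. Ephb1 had 1 broad 3′ UTR peak at the same place in all 4 (12, 9.65, 10.9 and 10). Efnb3, which rose on day 14, kept its 3′ UTR peak at 5.55, 4.71, 3.98 and 4.17.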

How the data were processed

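RNA was measured in 12 input libraries and m6A in 12 enriched libraries of mouse spinal cord, grouped by the sample labels. The gene table that the authors deposited gives FPKM per the file headers, and a peak list per group gives each peak's position, fold enrichment of enriched over input (a ratio) and scores (base 10 logarithms of p and of the false discovery rate), as deposited. The submitters' processing notes name HISAT2, StringTie, ChIPseeker and edgeR, and no source used here names the peak caller or the genome build. All 63 genes overlapped the RefSeq gene of the same name on GRCm38.p6. Depth per library is unknown, so precision comes from the spread between libraries.

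For genes at or above a mean of 0.5 FPKM, log2(FPKM + 0.5) was modelled by limma 3.58.1 (R 4.3.3) with lmFit and a trended eBayes, 4 group means together, with Benjamini-Hochberg adjustment over 15564 genes and a threshold of 0.05. Fold changes are on that scale, which understates those of low genes. The same fit was repeated without sham library 3 and day 7 library 3. Peaks matched at 50% reciprocal overlap on the same strand (bedtools 2.31.1), and peak starts were counted from 1. Values per library are given for genes that passed, the gene of smallest p in each comparison and the highest of each family. Peaks are named for the 5 highest fold enrichments in sham and up to 3 gained and 3 lost per day, and the start peaks were chosen after their values were seen. Members, gene lists and alternatives were chosen with earlier results of these data known. Same-numbered libraries of different groups deviated together only in part (correlations −0.105 to 0.793), so no pairing was used. The sum of oligodendrocyte markers is over 4 genes, and 1 other gene chosen for it is not reported here. The fit was tested on simulated data with known changes. Alternatives covered pseudocount, filter, scaling, a replicate block, fits of 2 groups, leaving out libraries, stricter or merged peaks and other overlaps.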

Additional observations from a re-analysis of the deposited data

Results flagged for a closer look

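Without the libraries that stood apart, 4 axon guidance genes differed between injured days by limma's test of the difference itself, with day 7 resting on libraries 1 and 2. From day 3 to day 7 the log2 difference was 0.25 for Unc5b, 0.20 for Sema6a and 0.14 for Sema4d. From day 7 to day 14 it was −0.20 for Sema6a, −0.19 for Sema4d, −0.19 for Plxnb3 and −0.17 for Unc5b. The oligodendrocyte marker sum was 2201 to 2207 FPKM on day 3, 2614 and 2619 in day 7 libraries 1 and 2, and 2114 to 2128 on day 14, and its part in these differences was not tested. With all 12 libraries none of these genes passed. Several of the calls without the libraries that stood apart were not firm. Sema4d and Sema6a on day 7 against day 3 were lost when any 1 day 3 library was left out. Plxnb3 and Unc5b on day 14 against day 7 were lost when any 1 day 14 library was left out. Groups of 3 libraries were not searched for outlying values.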

How the results depend on the processing

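With all 12 libraries, no axon guidance gene passed under pseudocounts of 0.1 and 1, both filters, both scalings, the replicate block, fits of 2 groups or leaving out any 1 library. Without both libraries that stood apart, 8 passed on day 3, 6 on day 14, 3 on day 7 against day 3 and 4 on day 14 against day 7. All-gene calls there were 1101, 173, 733, 317, 418 and 309 on day 3, 7 and 14 against sham, day 7 against day 3, day 14 against day 7 and day 14 against day 3, from 9, 16, 8, 2, 5 and 2. In that order, fits of 2 groups gave 2, 1, 5, 0, 0 and 155. The replicate block gave 5, 9, 1, 0 and 1 where it moved them (all but day 14 against sham) and changed no call of an axon guidance gene. Pseudocount 0.1 gave 1 on day 7 against day 3 and 3 on day 14 against day 7, no filter gave 3 on day 14 against day 7 and 4 on day 14 against day 3, and a filter of 5 gave 8 and 4 on days 7 and 14, 1 on day 7 against day 3 and 0 on day 14 against day 3. Leaving out each library gave 3 to 27, 4 to 26, 5 to 21, 0 to 2, 0 to 1 and 0 to 0. A filter of 5 also moved the members' median log2 fold change to 0.19 on day 3, 0.23 on day 14 and 0.25 on day 14 against day 7, with fewer genes tested.

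Signs turned as follows. Sema4d on day 3 went from 0.018 to −0.012 with median-of-ratios scaling, −0.034 with a fixed sum and −0.13 without both libraries, and on day 7 against day 3 from −0.0061 to 0.0042, 0.048 and 0.14. Unc5b on day 7 against day 3 went from −0.040 to 0.013 with a fixed sum and to 0.25 without both libraries. Without both, Plxnb1 (−0.17), Plxnb3 (−0.33) and Unc5b (−0.37) turned on day 3, Plxnb3 (−0.18) on day 7, Ephb1 (−0.14), Plxnb3 (−0.36) and Unc5b (−0.29) on day 14, and Plxnb3 (−0.19) and Unc5b (−0.17) on day 14 against day 7. Leaving out 1 library gave, on day 3, Ephb1 −0.19 to 0.094, Sema4c −0.34 to 0.20, Plxnb1 −0.17 to 0.19, Plxnb3 −0.33 to 0.50, Sema4d −0.13 to 0.094 and Unc5b −0.37 to 0.30. It gave Plxnb3 −0.47 to 0.36 on day 7. On day 14 it gave Sema4c −0.36 to 0.19, Sema4d −0.18 to 0.042, Ephb1 −0.14 to 0.14, Plxnb3 −0.36 to 0.46 and Unc5b −0.29 to 0.38. On day 7 against day 3 it gave Sema4d −0.092 to 0.14 and Unc5b −0.21 to 0.25, and on day 14 against day 7 Sema4d −0.19 to 0.040, Plxnb3 −0.19 to 0.27 and Unc5b −0.17 to 0.29. The low end for the sham comparisons of short genes is the value without sham library 3. The cause was not tested.

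For the fit without both libraries, alternatives were chosen after seeing the data. A filter of 5 gave 1 on day 7 against sham, 6 on day 7 against day 3 and 1 on day 14 against day 3, and a fixed sum gave 5 and 1 in the last 2. Leaving out each of the 10 libraries gave 3 to 6 on day 3, 3 to 5 on day 14, 1 to 1 on day 7 against day 3 and 2 to 2 on day 14 against day 7, where a lone sham or day 7 library is assumed to vary like the other groups. For peaks, the sham peaks with a match went from 76 to 137 on day 3 and from 80 to 136 on day 14 at an overlap of 1 base, and to 41, 52 and 42 on days 3, 7 and 14 at 80%. All other planned peak results stayed within 1.5 times. Depth is unknown, so what it limits cannot be given.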
